A study of Mus musculus with 4 samples.

Results

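The epidermal differentiation complex is a dense cluster of skin barrier genes on mouse chromosome 3. It was taken here as the 1600 kb between 91.9 and 93.5 Mb of that chromosome in the mm10 build. Its members are the 670 windows of 100 bp that the deposited methylation table lists there, out of 1048575 listed windows in all. The gene Flg held 54 of these windows, Hrnr held 75, and 541 lay elsewhere in the complex. The complex was selected on the ratio of PLZFon to WT MeDIP reads over Flg, which an earlier look at these data had found to be high. That ratio is therefore a description here and supports nothing by itself.

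The proteins of the complex build the cornified envelope, the cross-linked shell of dying keratinocytes. Loricrin, involucrin, the small proline-rich (SPRR) proteins and the late cornified envelope (LCE) proteins are its cross-linked substrates. The fused-type members of the S100 family, among them filaggrin (Flg), hornerin (Hrnr), repetin (Rptn) and trichohyalin (Tchh), join a calcium-binding head to a long run of tandem repeats encoded by one large exon. These genes are expressed in stratified epithelia and are not known as T cell genes. DNA methylation in mammals lies mostly on CpG dinucleotides, and outside CpG islands most of these are methylated in differentiated cells.

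Natural killer T (NKT) cells, which recognise lipids on CD1d, were sorted from the thymus of C57BL/6 mice with CD1 tetramers. One methylated DNA immunoprecipitation (MeDIP) library, made with an antibody against 5-methylcytosine, and 1 input library of DNA without pull-down came from WT mice, and the same pair of libraries came from PLZFon mice. PLZF, the product of Zbtb16, is the zinc finger protein on which NKT cell development depends. What the PLZFon allele is, how old the mice were and how many gave cells is not given in the sources used here. The antibody label conflicts with the titles, which were followed here: it names no antibody for the PLZFon MeDIP library and names one for the WT input. Library totals recovered from the table were 15143451 reads for WT MeDIP, 10635946 for PLZFon MeDIP, 60689327 for WT input and 50365402 for PLZFon input. With 1 library a group there is no replicate and no test, and every difference is one between libraries. Genomic DNA holds no expression values, so the cell type could not be checked against its markers. A ratio below is the PLZFon share of library reads over the WT share, and the 95% interval after it is the exact (Clopper-Pearson) one, which covers counting error only. A read was taken as counted in 4 neighbouring windows, so sums over windows were divided by 4 for the intervals and for every minimum of reads on a gene or bin. Raw sums are printed undivided. Every listed window had 10 or more MeDIP reads when PLZFon and WT were summed, and a CpG factor (the authors' score of CpG content) of 1 or more. An unlisted window is not a window without reads. More methylated cells and more methylation per cell cannot be told apart in such bulk DNA.

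The promoters of the complex are shown first, because their sequence bears on what MeDIP could read there. RefSeq promoter sequences (GRCm38.p6, the same primary assembly as mm10) matched 51 of the 75 annotated genes, with 53 promoters. In the 250 bases before the gene start the complex had a median of 1 CpG, against 6 over 32851 promoters of all genes. At most 1 CpG was found in 79.2% of its promoters and in 18.8% of all. The letters TATAA stood on the gene's strand in 26 of the 53 (49.1%), against 16% of all promoters, and on either strand in 56.6% against 22.8%. By family, 6 of 7 fused-type, 10 of 14 SPRR and 4 of 20 LCE promoters held it on the gene's strand. Promoters of 4 genes follow, from 5′ to 3′, with each CG and each TATAA in capitals. Flg and Hrnr carry the main results below, and the Sprr2a genes are near-identical copies of each other.
Flg (chr3:93273296-93273545, + strand): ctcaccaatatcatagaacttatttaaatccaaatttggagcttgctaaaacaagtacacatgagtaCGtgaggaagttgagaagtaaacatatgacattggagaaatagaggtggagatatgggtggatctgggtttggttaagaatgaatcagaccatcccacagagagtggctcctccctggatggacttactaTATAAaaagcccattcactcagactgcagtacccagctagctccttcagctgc
Hrnr (chr3:93319499-93319748, + strand): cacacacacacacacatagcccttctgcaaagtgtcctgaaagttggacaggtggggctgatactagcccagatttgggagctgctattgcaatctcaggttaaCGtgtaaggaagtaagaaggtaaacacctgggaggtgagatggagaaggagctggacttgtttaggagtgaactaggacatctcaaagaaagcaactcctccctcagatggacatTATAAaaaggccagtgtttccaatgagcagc
Sprr2a1 (chr3:92215585-92215834, + strand): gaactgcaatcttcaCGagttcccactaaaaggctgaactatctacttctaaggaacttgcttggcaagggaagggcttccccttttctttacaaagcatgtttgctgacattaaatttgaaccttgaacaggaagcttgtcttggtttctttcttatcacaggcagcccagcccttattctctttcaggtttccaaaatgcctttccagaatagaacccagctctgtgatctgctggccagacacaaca
Sprr2a3 (chr3:92285054-92285303, + strand): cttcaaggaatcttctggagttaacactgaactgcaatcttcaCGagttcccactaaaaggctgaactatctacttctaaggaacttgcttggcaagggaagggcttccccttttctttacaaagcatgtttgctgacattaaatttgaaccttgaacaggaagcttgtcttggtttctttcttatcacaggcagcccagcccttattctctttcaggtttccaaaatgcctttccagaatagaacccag
Each of these held 1 CG. The TATAA began at position -53 from the start in Flg and at -31 in Hrnr, and these letters were not on the gene's strand in the 250 bases of the Sprr2a genes. The 250 bases of Sprr2a2 were the same as those of Sprr2a1 at all 250 positions. With a shift of 28 bases, Sprr2a3 was the same as Sprr2a1 over all 222 overlapping bases. Only 1 of the 53 promoters, that of Lce1i, overlapped a listed window, so the promoters of Flg, Hrnr, Lor, Ivl and the other genes have no MeDIP value here.

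Much of the complex was unlisted. The 670 windows compare with a median of 1315 over 705 stretches of the same length along the table, and 162 of those held as few or fewer. Of 75 annotated genes, 31 had a listed window within 1000 bp (41.3%, against 80.7% of all annotated genes in the range of the table). The families differed in this, but a longer gene spans more windows, and gene length was not allowed for. The LCE genes, whose products reinforce the envelope late in differentiation, had listed windows at 2 of 21 genes (Lce1i and Lce3d). The SPRR genes had them at 3 of 17, namely Sprr2a1, Sprr2a2 and Sprr2a3, the longest of that family. The fused-type genes had them at 5 of 7, with none at Tchh or Tchhl1. Lor and Ivl, the loricrin and involucrin genes, and Prr9 had none. A minimum of 20 MeDIP reads, PLZFon and WT together, left 15 genes measured, 8 of them protein-coding.

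Filaggrin is cut from a long precursor made of tandem repeats and aggregates keratin in the dying keratinocyte. Over the Flg gene (gene ID 14246, chromosome 3, 93273546 to 93293689) the raw window sums were 498 in PLZFon MeDIP, 236 in WT MeDIP, 898 in PLZFon input and 968 in WT input. The PLZFon MeDIP library was the high one although it was the smaller of the MeDIP pair. That gave a MeDIP ratio of 3.0 (2.19 to 4.17). For input it was 1.12 (0.928 to 1.35). Annotated loci of all kinds passed the rule of at least 20 reads, a 2-fold difference and an interval excluding equality in 0.182% of cases on the higher side and 0.448% on the lower side. Among protein-coding loci alone the shares were 0.0913% and 0.352%. Flg was the only one of the 15 measured genes to pass, and it is the gene that the choice of region rested on, so nothing is read from that count.

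The gene fell into 2 unlike pieces. The processed pseudogene Rplp0-ps1 (chromosome 3, 93278070 to 93279153), a copy of a ribosomal protein gene, lies inside Flg. The 6 windows over it or within 1000 bp of it held 34 PLZFon and 83 WT MeDIP reads, with 77 and 50 input reads. Their MeDIP ratio was 0.583 (0.229 to 1.35). Of these, 4 windows, from 93278001 to 93278400, lay over the pseudogene itself and held 26 PLZFon and 68 WT MeDIP reads. Reads over such a copy may be shared with its relatives elsewhere, so these values are uncertain. The column headers name alignments of unique reads, but how that filter worked is not given in the sources used here. Its effect here and at the repeats below was not tested. The other 48 windows, from 93280401 to 93292600, are called the repeat stretch here, for the spacing of their CpG-dense windows; exon bounds were not used. They held 464 PLZFon and 153 WT MeDIP reads, against 821 and 918 input reads. Their ratio was 4.32 (2.97 to 6.4) for MeDIP and 1.08 (0.888 to 1.31) for input. They averaged 36.2 input reads a window over both libraries, against 21.6 over all listed windows. Whether reads were shared between the repeats was not tested, so these counts are uncertain too.

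Within the repeat stretch the MeDIP libraries met only at 7 reads. A window held 7 to 12 PLZFon MeDIP reads (median 10) and 0 to 7 WT MeDIP reads (median 3). The inputs overlapped fully, with 8 to 26 reads in PLZFon and 10 to 28 in WT. The window 93282801 to 93282900 had 12 PLZFon and 0 WT MeDIP reads and 19 and 20 input reads. The window 93290701 to 93290800 had 12 and 1 MeDIP reads and 20 in each input. PLZFon was above WT in raw reads in 48 of 48 windows. That count follows in part from the listing: 27 of the windows reached 10 reads on PLZFon reads alone and 0 on WT reads alone. The repeat stretch spans 122 windows, so the rest had too few reads or too low a CpG factor to be listed, and their ratio is not known. No window reached 20 reads, the highest sum being 18.

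**Figure D1:**
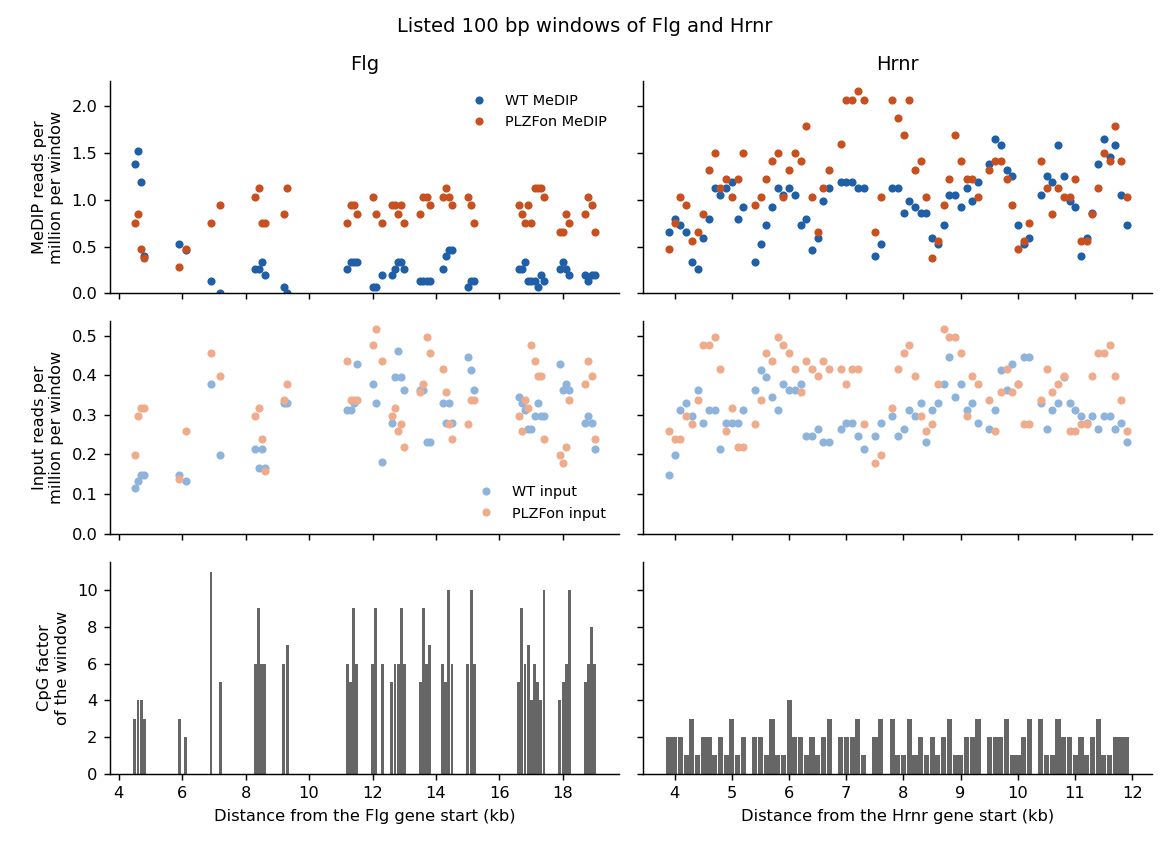
Listed windows of Flg (left) and Hrnr (right) by distance from the gene start in kb: depth-scaled MeDIP reads (top), depth-scaled input reads (middle) and the authors' CpG factor (bars, bottom); each point is 1 window in 1 library, with no replicate. From about 7 kb into Flg the PLZFon MeDIP points lie above the WT points while the inputs mix, and CpG-dense windows recur mostly at steps of 700 or 800 bp.

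The windows of the repeat stretch were CpG-dense, with a mean CpG factor of 6.6 against 2.34 over all listed windows, and 93.8% had a factor of at least 5 (7.8% of all). In 12 of them the factor was 8 or more. The steps between these windows were 700 or 800 bp 8 times, and the other steps were 1500, 1600 and 3000 bp. As a description across 25 window pairs 700 bp apart, the CpG factors had a Pearson r of 0.58, and across 22 pairs 1500 bp apart 0.65; the pairs share windows and the gene.

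Counts in the repeat stretch were also compared across window pairs. There, WT MeDIP counts had an r of -0.75 at 800 bp (26 pairs) and 0.69 at 1500 bp, while PLZFon MeDIP counts had -0.35 and -0.18. The PLZFon input had -0.52 and 0.34, and the WT input -0.27 and 0.06, so the longer step was not particular to WT MeDIP. The values were followed along 6 neighbouring runs of listed windows from 93284701 to 93288800, each with a CpG factor of 9 or more in its densest window. A lone window between them, 93285801 to 93285900, with 3 WT and 8 PLZFon MeDIP reads, had a lower factor and was left out. In order, WT MeDIP had 19, 2, 21, 8, 24 and 5 raw reads, and PLZFon MeDIP had 37, 20, 47, 41, 44 and 29. Per window, the odd runs held 4.92 WT and 9.85 PLZFon reads, and the even runs 1.67 WT and 10 PLZFon reads. Per window the WT input held 21 reads in both sets, and the PLZFon input 15.9 in the odd and 20.3 in the even runs. MeDIP over input was 0.94 and 0.318 in WT, and 2.93 and 2.33 in PLZFon, lower in the even runs in both. The MeDIP ratio was 2.85 (1.52 to 5.56) in the odd runs and 8.54 (2.84 to 35.9) in the even runs. These intervals overlap, the runs were chosen after their values were seen, and the difference between them was not tested.

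Pull-down over input set Flg further apart in WT than in PLZFon. In WT the MeDIP reads of the repeat stretch were 0.668 times the input (0.461 to 0.944), and in PLZFon they were 2.68 times (2.11 to 3.38). The values over all listed windows were 4.44 and 4.22. Over the whole gene the values were 0.977 in WT and 2.63 in PLZFon. Counted from the lowest of 7668 measured protein-coding loci, Flg had rank 5 in WT and rank 670 in PLZFon. The 4 loci below it in WT, Gm2427, A530032D15Rik, Pramel36 and Gm6346, had a mean CpG factor from 1.35 to 1.86, against 6.22 for Flg, and Pramel36 and Gm6346 overlap and share their windows. Their PLZFon over WT ratios ran from 1.03 to 1.31. The 14 runs of adjacent windows in the repeat stretch ranged from 0 to 1.39 times the input in WT and from 1.65 to 3.62 times in PLZFon. The listing and the choice of Flg both favour such a separation, so nothing is read from it.

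**Figure D2:**
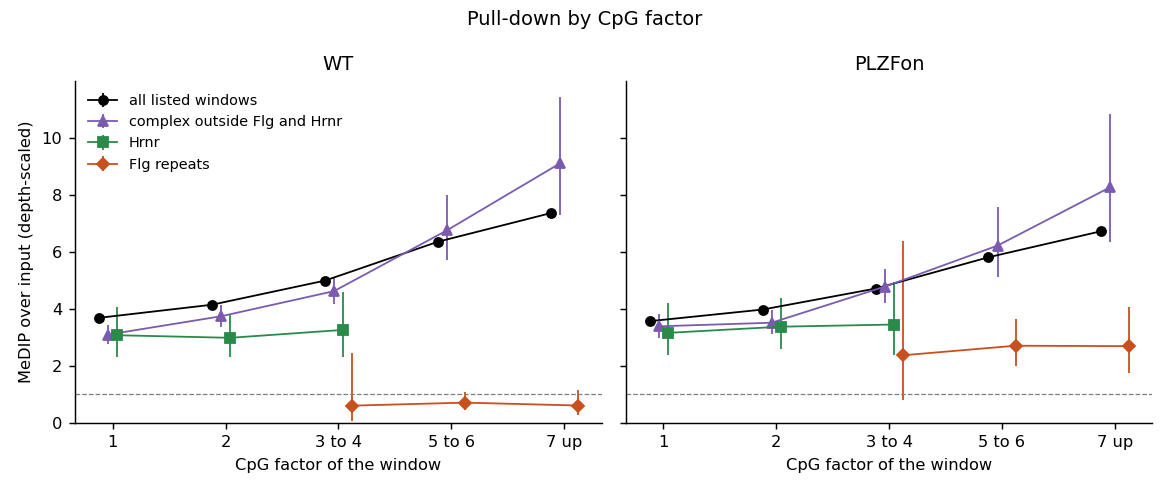
MeDIP over input, scaled to library depth, against the CpG factor class of the windows in WT (left) and PLZFon (right), with exact 95% intervals that cover counting error. The complex outside Flg and Hrnr rises with CpG factor like all listed windows; the Flg repeat stretch lies between 0.601 and 0.707 in WT and between 2.37 and 2.70 in PLZFon.

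CpG-dense DNA was pulled down more strongly elsewhere in the complex. Outside Flg and Hrnr the WT value rose from 3.09 times the input at a CpG factor of 1 to 9.1 times at a factor of 7 or more, and the PLZFon value from 3.38 to 8.27. Over all listed windows the rise was from 3.68 to 7.36 in WT and from 3.56 to 6.72 in PLZFon. The 15 windows of the repeat stretch with a factor of 7 or more had 0.606 in WT and 2.69 in PLZFon. They lay below the rest of the complex in both libraries. The gap was larger in WT, but Flg was selected on that ratio and the listing favours it, so nothing is read from this.

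Windows of the same kind elsewhere were looked at for their ratio, a comparison chosen after the Flg values were seen. Among windows with a CpG factor of at least 5 whose pooled MeDIP reads were under 1.5 times the input, the 21 in the Flg repeat stretch had a ratio of 6.57 (3.38 to 14.0). A low pooled MeDIP value picks windows with few WT reads: the 17 Flg windows at 1.5 to 2 times the input had 3.6, the 7 at 2 to 3 times had 2.85, and all 45 with that CpG factor had 4.32. On chromosome 6 between 47651801 and 47773100, a stretch that holds the small RNA gene Rn4.5s, 142 such windows had 3.2 (2.84 to 3.61) with an input ratio of 1.34. The other 1126 such windows, pooled, had 1.06 (0.994 to 1.14). Single places among them differed: 5 windows in 1 part of chromosome 4 held 80 PLZFon and 39 WT raw MeDIP reads, a ratio of 2.92. In 1 part of chromosome 6 outside that stretch, 34 windows had 0.858. No interval was computed for these places. Without the limit on pooled reads, the 223 windows of that chromosome 6 stretch with this CpG factor had 1.5 (1.43 to 1.58). Their input ratio was 1.31. Since Flg was selected on this ratio, the values are set side by side only as a description. Mean input per window was 164 reads in the 142 chromosome 6 windows and 40 in the 21 Flg windows. The authors' relative methylation score, which corrects for CpG content, had a median of 0.44 in PLZFon and 0.3 in WT over the repeat stretch, against 0.57 and 0.63 over all listed windows.

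Hornerin is the filaggrin-like repeat protein whose gene neighbours Flg. Over Hrnr (gene ID 68723, chromosome 3, 93319749 to 93333572) the raw sums were 962 in PLZFon MeDIP, 1079 in WT MeDIP, 1377 in PLZFon input and 1407 in WT input. PLZFon over WT came to 1.27 (1.06 to 1.52) in MeDIP and 1.18 (1.01 to 1.37) in input. Both were above 1, and dividing the first by the second gave 1.08. Of annotated loci of all kinds, 1.21% had an interval above equality and 3.67% one below it. Hrnr was pulled down 3.07 times over input in WT and 3.31 times in PLZFon. It differed from Flg in CpG content, with a mean CpG factor of 1.88 and no window at 5 or more. It was also listed almost without gaps, at 75 of the 81 windows from 93323601 to 93331700. Of these, 60 reached 10 reads on WT reads alone. The Hrnr windows averaged 37.1 input reads over both libraries, also above the 21.6 of all listed windows. Sharing of reads between its repeats was not tested either.

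The ratio was not even along Hrnr. In 5 of the 7 runs of adjacent windows, from 93323601 to 93329100, the ratio lay between 1.29 and 1.83. In the last 2 runs it was 0.894 and 1.01. None of the 7 intervals excluded equality. The highest ratio, 1.83 (0.354 to 10.5), rested on 18 PLZFon and 14 WT raw MeDIP reads. The next was at 93326601 to 93327100, where 106 PLZFon and 88 WT MeDIP reads gave 1.72 (0.938 to 3.17). The input ratio of that run, 1.48, was the highest of the 7. MeDIP counts of Hrnr windows 1000 bp apart were correlated in both libraries. Across 59 window pairs that far apart r was 0.40 in PLZFon and 0.53 in WT, against 0.26 and 0.02 in the inputs. At 2000 bp (52 pairs) the MeDIP values were 0.07 in PLZFon and 0.29 in WT, so a second rise was seen only in WT. At 500 bp the values were -0.11 and -0.39 in MeDIP and -0.35 and 0.09 in the inputs, the PLZFon library first. No difference between libraries or genes in these values was tested.

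The other fused-type genes had few reads. Repetin, a minor envelope component, had 35 PLZFon and 50 WT raw MeDIP reads at Rptn, a ratio of 0.997 (0.369 to 2.56). Flg2, the filaggrin 2 gene between Crnn and Flg, had 15 and 63 raw reads against 68 and 71 input reads. Its ratio was 0.339 (0.078 to 1.08), on the side opposite to Flg. Crnn, which encodes cornulin, had 6 and 22 raw reads and a ratio of 0.388 (0.023 to 2.62). After division by 4, Flg2 had 19.5 and Crnn 7 MeDIP reads, short of the minimum of 20. Of the 3 measured members of the group, Flg and Hrnr lay above 1 and Rptn at 0.997, and Flg is the gene the region was selected on. Intervals above equality were those of Flg and Hrnr; of 7668 protein-coding loci 95 had one above and 384 one below.

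**Figure D3:**
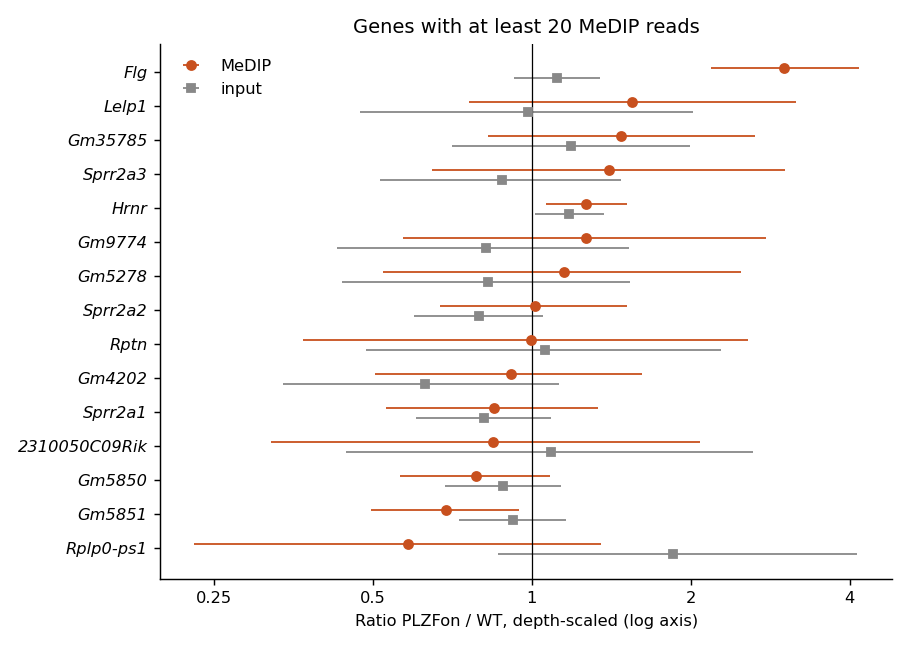
Ratio of PLZFon to WT depth-scaled reads on a log axis for the 15 genes with at least 20 MeDIP reads, each with 1000 bp on both sides: MeDIP (circles) and input (squares) with exact 95% intervals. The MeDIP interval of Flg runs from 2.19 to 4.17, on the ratio the region was selected on, and those of most other genes include 1.

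Sprr2a1, Sprr2a2 and Sprr2a3 encode small proline-rich proteins that bridge other envelope proteins, and they lie in copies of one block. From 92211301 to 92291400 the block held 107 windows, with 2378 PLZFon and 3897 WT raw MeDIP reads. PLZFon over WT came to 0.869 (0.783 to 0.963) in MeDIP and 0.93 (0.85 to 1.02) in input. Its input was high: 81 of its windows had at least 60 input reads over both libraries, and these were all such windows of the complex. The block averaged 73.7 input reads a window, against 21.6 over all listed windows. At one peak of 6 windows that recurs in each copy, the third window held 66, 65 and 63 PLZFon MeDIP reads in copies 1, 2 and 3, and 88, 94 and 93 WT MeDIP reads. Over all listed windows of copies 1, 2 and 3, the MeDIP ratio was 0.906 (0.77 to 1.07), 0.783 (0.669 to 0.915) and 1.07 (0.806 to 1.41). PLZFon MeDIP over input was 3.5, 2.9 and 4.0. These sums do not cover like parts: copies 1 and 2 held 41 and 50 windows, while copy 3 held 16. Copy 3 was cut at the end of the block, at 92291400, so its values cannot be set against those of the other copies. The promoter sequences above are the same where they overlap, and whether reads of one copy were counted in another was not tested, so the counts of each copy are uncertain.

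**Figure D4:**
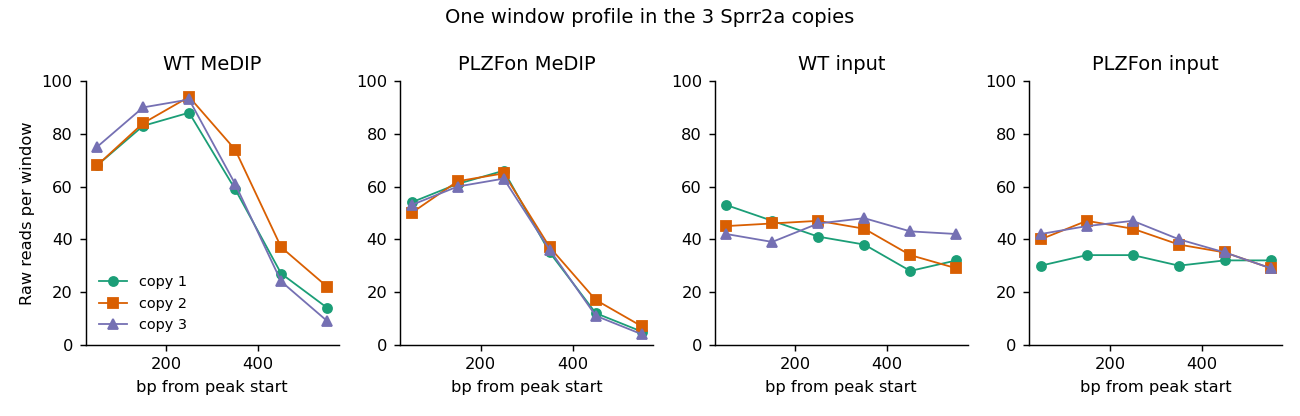
Raw reads per 100 bp window over a peak that recurs in the 3 Sprr2a copies, against distance from the start of the peak in bp, in 1 library per panel. The top window of the copies holds 63 to 66 reads in PLZFon MeDIP and 88 to 94 in WT MeDIP.

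Sprr2a1 had 128 PLZFon and 215 WT raw MeDIP reads, a ratio of 0.848 (0.529 to 1.34). For Sprr2a2 the reads were 175 and 246 and the ratio 1.01 (0.671 to 1.52). Sprr2a3 had 62 and 63 reads and a ratio of 1.4 (0.649 to 3.02). In WT these genes stood at 1.82, 1.9 and 1.67 times the input, below the median of 4.18 over protein-coding loci and in the lowest 5% of loci (under 2.57). In PLZFon they stood at 1.9, 2.42 and 2.67, where the lowest 5% lay under 2.34, so only Sprr2a1 was among them. The pseudogenes Gm5850 and Gm5851 between them had ratios of 0.784 (0.564 to 1.08) and 0.689 (0.497 to 0.946). Gm5851 was the 1 of 15 measured genes with an interval below equality, and its input ratio was 0.92 (0.728 to 1.16).

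Of the other genes of the complex, Lelp1, a late cornified envelope-like gene, had 75 PLZFon and 69 WT raw reads and a ratio of 1.55 (0.761 to 3.16). Crct1, a cysteine-rich gene of the complex, had 10 and 65 raw MeDIP reads against 54 and 71 input reads, with a ratio of 0.219 (0.0333 to 0.83). Its pull-down over input was 3.67 in WT and 0.877 in PLZFon, the reverse order to Flg. Kprp, a keratinocyte proline-rich protein gene, had 7 and 35 reads and a ratio of 0.285 (0.024 to 1.49). After division by 4, Crct1 had 18.75 and Kprp 10.5 MeDIP reads, short of 20. With a minimum of 10 reads Crct1 passed as lower and the pseudogene Gm46837, with 47 and 15 raw reads and a ratio of 4.46 (1.31 to 20.1), passed as higher; of 15874 loci at that setting 33 passed as higher and 77 as lower. Smcp, Pglyrp3, Lce1i and Lce3d had at most 7 reads each after division and intervals that include equality. Among the 5 highest ratios was also the long noncoding RNA gene Gm35785 at 1.48 (0.828 to 2.65). The low end also held 2310050C09Rik at 0.845 (0.321 to 2.08), which had 4.64 times the input in WT, second to Rplp0-ps1 at 6.65.

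Most reads outside Flg, Hrnr and the Sprr2a block lay between genes. The block from 92185401 to 92192700 held 49 windows with 1183 PLZFon and 1787 WT raw MeDIP reads, a ratio of 0.943 (0.811 to 1.09). Its pull-down over input was 6.86 in WT and 7.22 in PLZFon. A similar block from 93168401 to 93173100, between Crnn and Flg2, held 43 windows with 1019 and 1362 reads and a ratio of 1.07 (0.902 to 1.26). Its pull-down over input was 6.36 and 7.44. No gene of the annotation overlaps either block, and both stood above the Flg repeat stretch in both libraries.

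Along the complex, 40 of 160 bins of 10 kb had at least 20 reads, with 20 above a ratio of 1 and 20 below. Their median was 1.0, against 0.965 over 60900 bins of the table. The bins 93280001 to 93290000 and 93290001 to 93300000, both over the Flg repeat stretch, passed the 2-fold rule as higher, at 4.29 (2.7 to 7.01) and 3.59 (2.0 to 6.75). None passed as lower. Among all measured bins 0.291% passed as higher and 0.438% as lower. Without the 2-fold size, 3 bins had an interval above equality and 2 below it, against 1.02% and 2.07% of all measured bins. The third higher bin was over Hrnr, and both lower ones were in the Sprr2a block. The first bin to the left of the Flg repeats, which holds Rplp0-ps1, had the lowest ratio at 0.583.

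**Figure D5:**
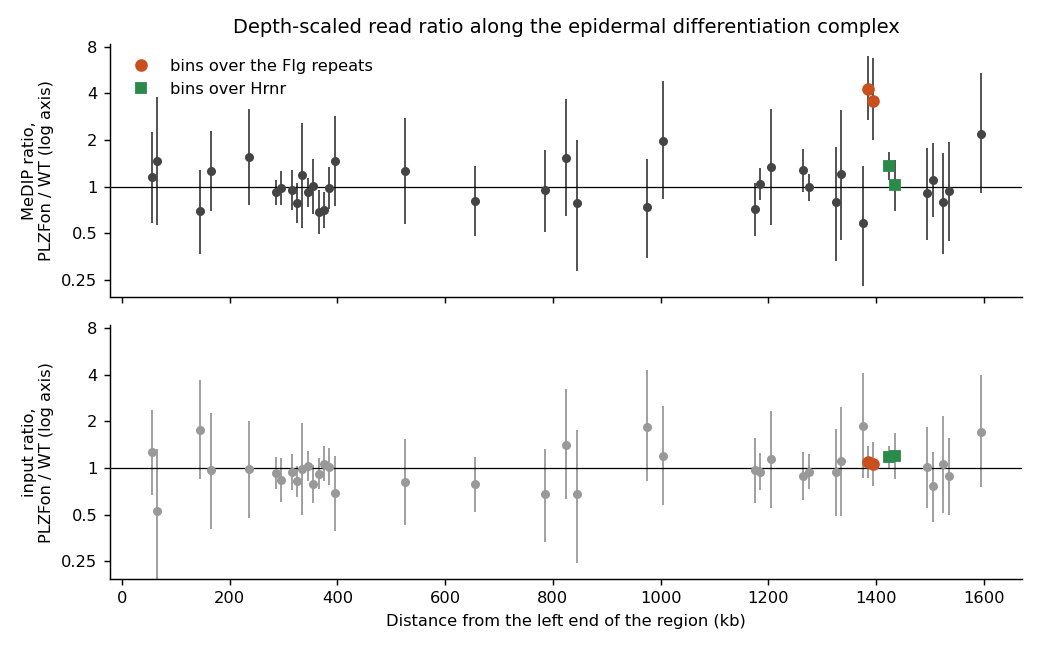
PLZFon over WT ratio of depth-scaled reads on a log axis in the 40 bins of 10 kb with at least 20 MeDIP reads, by distance from the left end of the region in kb, for MeDIP (top) and input (bottom), with exact 95% intervals. The 2 bins over the Flg repeats reach 4.29 and 3.59 in MeDIP and stay near 1 in input.

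Outside Flg and Hrnr the complex as a whole had 7252 PLZFon and 10898 WT raw MeDIP reads, a ratio of 0.947 (0.892 to 1.01), beside 0.964 over all listed windows. Its input ratio was 0.954 (0.9 to 1.01). Pull-down over input there was 4.28 in WT and 4.24 in PLZFon. Without the Sprr2a block the ratio was 0.991 (0.921 to 1.07). Among single windows with at least 20 MeDIP reads, 2 of 300 passed as higher (0.667%) and 5 as lower (1.67%), where all listed windows gave 1.13% and 2.17%. Both higher ones were in Hrnr, 93326001 to 93326100 with 19 against 12 reads and 93327801 to 93327900 with 22 against 15. The lowest were an intergenic window, 93085801 to 93085900, with 2 against 20 reads, another at 92552501 to 92552600 with 3 against 20, and one in Flg2, 93203501 to 93203600, with 3 against 17. After the first Hrnr window, the next highest were in Gm35785 (14 against 9 reads) and at 93169401 to 93169500 (12 against 8). Among the inputs, 6 of 506 windows passed as higher and 4 as lower, 2 and 1 of them in Flg; among all listed windows the shares were 1.92% and 1.43%.

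By the p-values in the authors' deposited table, 0 of the 670 windows had an adjusted p below 0.05, where 151 did in the whole table. The lowest adjusted p of the complex in the authors' deposited table was 0.285, shared by the Flg windows 93282801 to 93282900 and 93290701 to 93290800. Their log2 fold changes in the authors' deposited table were 6.91 and 3.96. Before adjustment, 69 windows of the complex (10.3%) had a p below 0.05 in the authors' deposited table. Of these, 44 were higher and 25 lower in PLZFon, and 28 of the 44 lay in the Flg repeat stretch. Outside that stretch the lower windows were the more numerous. The share over the authors' deposited table was 3.31%, with 1.63% higher and 1.68% lower. These p-values, adjusted or not, rest on the MeDIP counts that Flg was selected on, so nothing is read from those of Flg. Windows less than 4 apart share reads, and the authors' p-values come from 1 library a group. At the edges of the region, the listed window just inside on the left, 91913401 to 91913500, had 12 PLZFon and 4 WT reads and the one just outside, 91895201 to 91895300, had 1 and 9. On the right these were 11 and 3 reads inside (93493501 to 93493600) and 10 and 6 outside (93521801 to 93521900).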

How the data were processed

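Thymic NKT cell DNA was digested with proteinase K at 50 °C for 12 to 18 h and sonicated to a median of 180 to 230 bp, per the labels' protocols. BWA, edgeR and the mm10 build are named in the submitters' processing notes, without versions, and the columns came from sorted alignments filtered for unique reads, per the file headers. Each 100 bp window has raw counts, RPKM values and a relative methylation score as deposited by the authors. Columns of mean signal per genotype, deposited by the authors from 1 library each, were not used. The CpG factor is a score by the authors. The log2 fold changes and the p-values and adjusted p-values are the authors' edgeR output. The table ends within chromosome 7.

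Library totals were recovered from deposited counts and RPKM values (Python 3.11.15, scipy 1.17.1) and were the main scaling. Gene loci are RefSeq genes with 1000 bp on each side. Each of the 4 groups had 1 library, so no replicate error could be given. A locus, bin or window passed with at least 20 reads, a 2-fold ratio and an exact 95% interval excluding equality. The rule was run on simulated independent counts with counting error only. That is the error its interval assumes, so the run could not check it against variation between libraries. TMM factors came from edgeR 4.0.16. Named genes were Flg, Hrnr, all that passed, the 5 highest and 5 lowest ratios, the 2 highest and lowest WT pull-downs, and the 3 highest and lowest windows; Flg2, Crnn, Crct1, Kprp and others outside that rule were named after their values were seen. Members and lists were chosen with earlier results of these data known. Alternatives were other scalings, read minimums, flanks, window divisors and input filters.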

Additional observations from a re-analysis of the deposited data

How the results depend on the processing

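No paired analysis was possible because each group had 1 library. Of 59 alternative values, 49 stayed near the main one, 10 moved and 0 reversed. Some of the 49 could not move, so the tally overstates stability. A window divisor changes an interval but not a ratio, and no Flg or Hrnr window had at least 60 input reads. Leaving out the windows over or within 1000 bp of Rplp0-ps1, chosen after seeing the data, moved the Flg ratio to 4.32 and its WT MeDIP over input to 0.668. Over the other 8 alternatives the Flg ratio stayed between 2.84 and 3.21, unchanged at 3.0 under the window divisors, input filter and the flank. The lowest of these came with scaling within classes of CpG factor and MeDIP over input, which was added after seeing the data, and it was recomputed with windows outside the complex. The Hrnr ratio stayed between 1.27 and 1.32, again unchanged under the window divisors, the input filter and the flank. Outside Flg and Hrnr, MeDIP over input became 4.71 (WT) and 4.78 (PLZFon) without windows of at least 60 input reads, which leaves out 81 windows, all in the Sprr2a block. It became 4.80 and 4.62 with a CpG factor of at least 2. Genes passing as higher went from 1 to 2 and as lower from 0 to 3 when a read was counted in 2 windows (Gm46837; Kprp, Crct1 and Flg2), and to 2 and 1 with at least 10 reads (Gm46837; Crct1). Over all annotated loci the calls went from 26 higher and 64 lower of 14286 to 119 and 172 of 15874 with 2 windows a read, and to 33 and 77 of 15874 with at least 10 reads. The ratio outside Flg and Hrnr was 0.947 to 0.991, and its interval excluded equality when a read was counted in 2 windows (0.908 to 0.988). Depth limits single windows: 300 of 670 reached 20 MeDIP reads and 0 in the Flg repeat stretch did.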
